A study of Mus musculus with 16 samples.

Results

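The genes described here are the splicing factors and ribonucleoproteins whose annotated symbols begin with Srsf, Hnrnp, Snrp, Sf3a, Sf3b, Prpf, U2af or Lsm and a digit. Membership was set by symbol, though the families were chosen with earlier results of these data known. Of 58 annotated genes, 56 had a scanner signal and were tested among 9450 genes, through 102 probes. Only probes in the authors' deposited log2 value table were annotated, so the 58 genes and all genes tested are limited to those probes. They comprise 4 Sm core proteins, 10 LSm proteins, 7 proteins of the U2 particle, 3 U2AF proteins, 4 proteins of the U5 particle and the tri-snRNP, 6 other Prpf proteins, 9 SR proteins and 13 hnRNP proteins.

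The samples were tumor microenvironment tissue taken 14 days after inoculation with B16 (5 arrays), the same kind of tissue at 4 days (4 arrays) and control tissue (7 arrays). B16 is a pigmented melanoma cell line derived from C57BL/6 mice. All samples came from C57BL/6 mice aged 8 weeks and their total RNA was hybridised, as biotin-labelled cRNA, to Illumina bead arrays. No transgene, drug or genetic change is named in the labels, which give neither the kind of control tissue nor the site of inoculation. They also do not say whether each numbered replicate was a separate mouse, so the p-values cover only differences among these arrays, some of which could be technical.

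Before messenger RNA leaves the nucleus, introns are cut out by the spliceosome, which is built from small nuclear RNAs and their proteins. The U1 and U2 particles mark the ends of the intron, with U2AF at the 3′ splice site, and the U4/U6 and U5 particles then join as the tri-snRNP. SR proteins mostly bind exons and promote their use, while hnRNP proteins coat nascent transcripts and often hold splice sites back. Most of these genes are active in nearly every cell type.

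The arrays detected 15555 to 21669 probes each at a detection p under 0.05. On 3 tumor arrays, day 14 array 2, day 14 array 5 and day 4 array 4, only 10, 4 and 5 of 46 tested markers of host tissue were detected, against 45 or 46 on each other array. Those markers cover epidermis, skeletal muscle, adipocytes, fibroblasts, endothelium, macrophages and T cells. On the 3 arrays, 4, 0 and 0 of 7 epidermis markers and 2, 1 and 1 of 10 muscle markers were detected, while all 11 melanocyte markers were. Melanocyte markers were also detected on the control arrays, 5 of 11 on control array 1 and 10 or 11 on the other 6. Differences are therefore given with and without these 3 tumor arrays, an alternative chosen after the data were seen. For day 14 against control, the values without them stand in the text or, for the 56 genes, in the plot of differences by role. In bulk tissue, fewer cells of a type and less RNA per cell cannot be told apart.

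The splicing genes were detected nearly everywhere and varied less than most genes. On all 16 arrays, 53 of the 56 were detected, against 70.6% of all genes tested. The median SD of their log2 signal over the 16 arrays was 0.385 (range 0.16 to 0.86), against 0.577 for all genes, and 0 of the 56 had an SD over 1, against 19.8% of all genes. The 3 genes not detected everywhere were Hnrnpul1, Prpf39 and Sf3a2. Hnrnpul1, an hnRNP U-like protein, was detected on all 5 day 14, 3 of 4 day 4 and all 7 control arrays. Prpf39, a partner of the U1 particle, was detected on 2 of 5 day 14, 3 of 4 day 4 and 6 of 7 control arrays. Sf3a2 was detected on all 5 day 14, 3 of 4 day 4 and 6 of 7 control arrays. Hnrnpul1 varied most (SD 0.86), followed by Lsm12 (0.85), Sf3a2 (0.84), Hnrnpdl (0.82), Lsm8 (0.72) and Snrpd3 (0.67). At the other end stood Prpf18 (SD 0.16), a factor of the second splicing step, Hnrnpc (0.17), Sf3a3 (0.20) and Sf3b2 (0.21).

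The comparison of day 14 with control asks which splicing transcripts differ in the tissue 14 days after inoculation. Most of the 56 were slightly higher at day 14, and 0 passed the test. The log2 difference was positive in 45 of 56 splicing genes, against 52.5% of all genes, and its median was 0.31, against 0.0396 over all genes. The limma test with Benjamini-Hochberg adjustment over 9450 genes called 0 of the 56 at an adjusted p under 0.05, as it called 0% of all genes (lowest adjusted p 0.269). At an unadjusted p under 0.05 there were 12 of 56, against 18% of all genes. Of these 12, 11 were higher and 1 was lower, where 6.19% of all genes were higher and 11.8% lower at that limit. Among the 6669 genes detected on every array the share higher was 7.74%, and among the 53 such splicing genes there were 10. Without the 3 tumor arrays, the median was 0.135 (all genes -0.0395), 38 of 56 differences were positive and 1 of 56 had an unadjusted p under 0.05, against 2.16% of all genes.

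The count of 12 moved with single arrays, and so did the share of all genes at that limit. It was 3 (5.36% of the 56) without day 14 array 3, against 15.2% of all genes, and 3 without day 14 array 5, against 4.22%. It was 6 (10.7%) without day 14 array 2, against 4.87% of all genes, and 6 without control array 1, against 10.5%. It reached 18 (32.1%) without day 14 array 1, day 14 array 4 or control array 6, against 32.6%, 34.9% and 23.5% of all genes. The share of splicing genes was thus at times above, at times near and at times below that of all genes. The median stayed between 0.215 and 0.375 when any 1 array was left out. With median scaling in place of quantile normalization, the median of all genes shifted by -0.156, the count was 4 (7.14%, against 17% of all genes), and the splicing genes lay 0.346 above all genes, against 0.271 in the quantile-normalized values. That scaling also moved the split of all unadjusted calls, of which 10.8% were higher, against 34.4%.

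**Figure D1:**
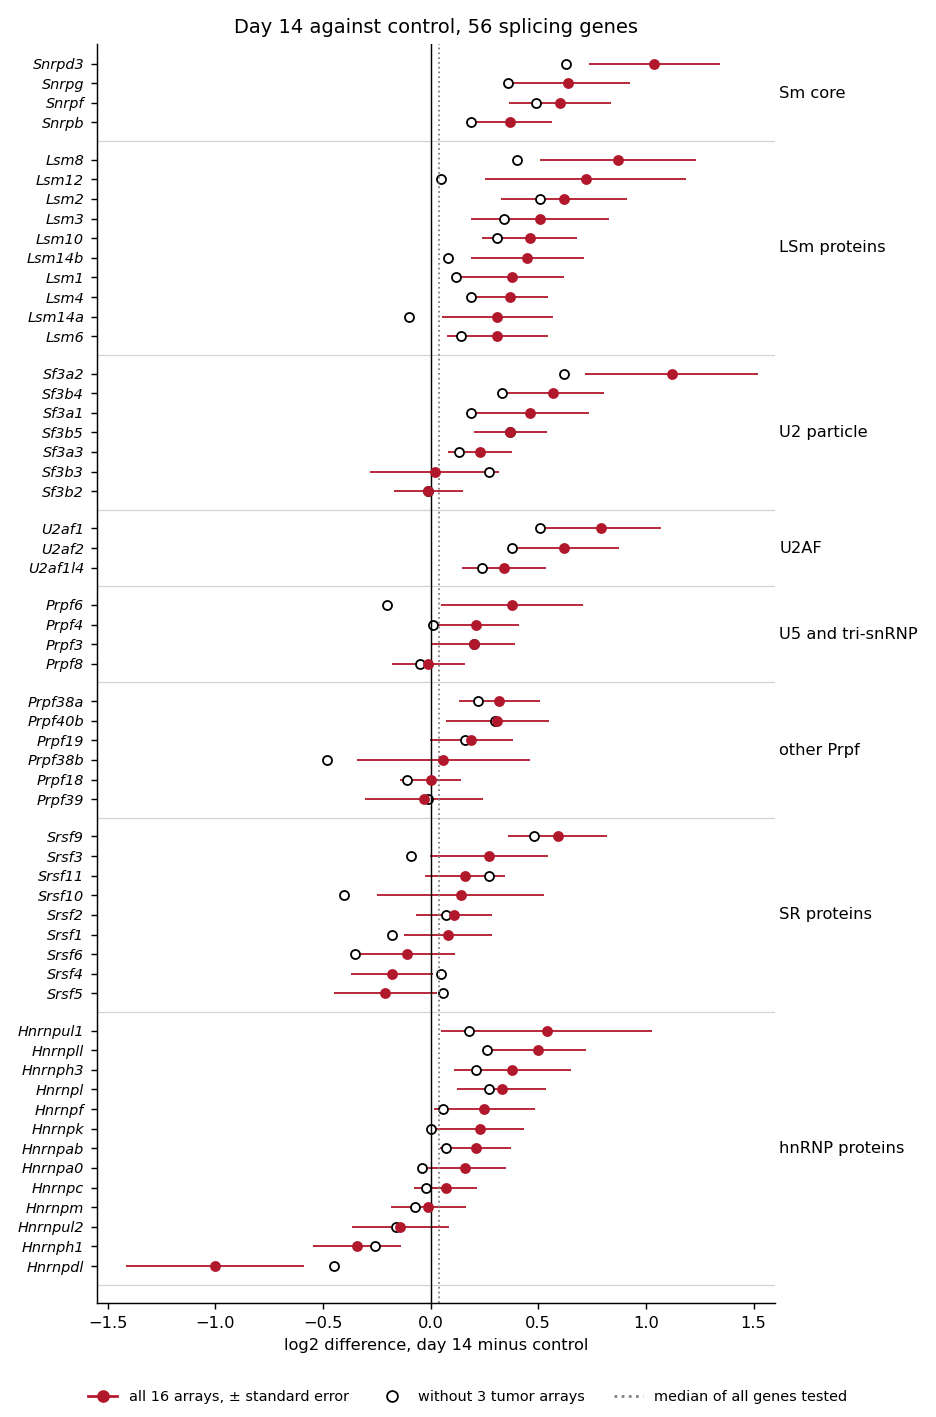
Log2 difference of each of the 56 splicing genes between day 14 and control (horizontal axis, filled points with ± 1 standard error) and the same difference without 3 tumor arrays (open points), by role from top to bottom. The filled points lie mostly right of 0, with all 4 Sm core and all 10 LSm genes positive, and most open points lie closer to 0.

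The Sm core proteins form the ring around most spliceosomal small nuclear RNAs, though not around U6. All 4 measured Sm genes were higher at day 14 (median log2 difference 0.62, range 0.37 to 1.04), against 52.5% of all genes. Of them, 3 had an unadjusted p under 0.05, against 18% of all genes. Without the 3 tumor arrays the median was 0.43.

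Snrpd3, which encodes the Sm ring subunit D3, had log2 signals of 11.13, 12.17, 10.99, 11.51 and 12.27 on day 14 arrays 1 to 5. It had 11.05, 10.48, 11.08 and 12.03 on day 4 arrays 1 to 4, and 9.96 to 10.98 with a median of 10.73 on the control arrays. All 5 day 14 arrays were above all 7 control arrays, though the lowest of them (10.99) barely cleared the highest control (10.98), and the highest values stood on the 3 tumor arrays with few host markers. Its log2 difference was 1.04 (SE 0.302, 2.05-fold, unadjusted p = 0.00352, adjusted p = 0.269 by limma). Without the 3 arrays it was 0.63 (unadjusted p = 0.026). Snrpd3 was the 1 splicing gene of 56 with no overlap between day 14 and control; 0.0952% of all genes lay wholly above and 0.0847% wholly below the controls.

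Snrpf, the Sm subunit F, had 10.85, 11.37, 11.72, 11.07 and 11.56 at day 14, 11.56, 10.58, 11 and 11.25 at day 4, and 10.47 to 11.58 with a median of 10.58 in controls. The groups overlapped through control array 6, whose 11.58 stood apart from the other controls. Its difference was 0.60 (SE 0.236, unadjusted p = 0.0228, adjusted p = 0.269 by limma), and 0.49 without the 3 arrays. Snrpg, the subunit G, differed by 0.64 (SE 0.284), and by 0.36 without them. Snrpb, which encodes the B subunit, averaged 12.26 ± 0.36 at day 14 (SD, n = 5), 12.09 ± 0.27 at day 4 (SD, n = 4) and 11.89 ± 0.25 in controls (SD, n = 7). Its difference of 0.37 (SE 0.193) was 0.19 without the 3 arrays.

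Several LSm proteins form related rings, one on the U6 small nuclear RNA and another, with Lsm1, that works in cytoplasmic mRNA decay. The class was set by name, so not all 10 genes encode subunits of these rings. All 10 LSm genes were higher at day 14, against 52.5% of all genes, with a median difference of 0.46 (range 0.31 to 0.87). An unadjusted p under 0.05 was found in 1 of 10, against 18% of all genes. Without the 3 tumor arrays the median was 0.16 and 9 of 10 were positive. Lsm8, the subunit that sets the nuclear U6 ring apart, had 11.04, 12.81, 11.92, 11.03 and 12.19 at day 14, 12.02, 10.44, 11.36 and 12.22 at day 4, and 10.35 to 11.67 with a median of 10.96 in controls. Day 14 arrays 2, 3 and 5 and day 4 arrays 1 and 4 were above every control, and the remaining tumor arrays lay among the controls. The difference was 0.87 (SE 0.364, unadjusted p = 0.0302, adjusted p = 0.269 by limma), and 0.40 without the 3 arrays.

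Lsm2, shared by both rings, had 9.71, 10.31, 11, 9.97 and 10.69 at day 14, 10.70, 9.65, 10.24 and 10.37 at day 4, and 9.02 to 10.66 with a median of 9.62 in controls. Its difference was 0.62 (SE 0.293), and 0.51 without the 3 arrays. Lsm4, another subunit of both rings, differed by 0.37 (SE 0.177), and by 0.19 without them. Lsm12 spread most among the LSm genes, with 9.12, 10.44, 9.62, 7.52 and 10.39 at day 14, 8.19, 8.54, 9.45 and 9.95 at day 4, and 7.95 to 9.32 with a median of 8.86 in controls. Its lowest value of all stood on day 14 array 4 and its highest values on the 3 arrays with few host markers, and its difference was 0.72 (SE 0.468) with them and 0.05 without. Lsm14a and Lsm14b, proteins of cytoplasmic processing bodies, differed by 0.31 (SE 0.258) and 0.45 (SE 0.262), and by -0.10 and 0.08 without the 3 arrays.

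The U2 particle binds the branch site of the intron through the SF3A and SF3B complexes. Of its 7 tested genes, 6 were higher at day 14 (median 0.37), against 52.5% of all genes. An unadjusted p under 0.05 was found in 3 of 7, against 18% of all genes. The median was 0.27 without the 3 tumor arrays. Sf3a2, a subunit of SF3A, had 5.27, 7.16, 6.98, 5.91 and 7.45 at day 14, 4.66, 5.40, 5.65 and 6.89 at day 4, and 4.79 to 5.92 with a median of 5.49 in controls. Day 14 arrays 2, 3 and 5 and day 4 array 4 were above every control, and the other 5 tumor arrays were within or below the control range. Its difference was 1.12 (SE 0.403, 2.17-fold, unadjusted p = 0.0139, adjusted p = 0.269 by limma), the largest positive one among the 56, and 0.62 without the 3 arrays. Sf3a2 was detected on 6 of 7 control arrays, so that its difference rests partly on signals near background.

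Sf3b4, an SF3B subunit that contacts the intron near the branch site, had 11.30, 12.22, 12.16, 11.12 and 12.06 at day 14, 11.75, 11.10, 11.48 and 11.92 at day 4, and 10.75 to 11.53 with a median of 11.19 in controls. It differed by 0.57 (SE 0.234, unadjusted p = 0.0268, adjusted p = 0.269 by limma), and by 0.33 without the 3 arrays. Sf3b5, a small SF3B subunit, differed by the same 0.37 with (SE 0.169) and without them. Sf3a1 differed by 0.46 (SE 0.277) and Sf3a3 by 0.23 (SE 0.15). Sf3b2 was level between the groups, at 11.75 ± 0.19 at day 14 (SD, n = 5), 11.93 ± 0.32 at day 4 (SD, n = 4) and 11.76 ± 0.14 in controls (SD, n = 7), and its day 14 difference of -0.01 changed sign with median scaling (0.0151). Sf3b6, which had no scanner signal, differed by 0.50 (SE 0.257, adjusted p = 0.275 by limma among 9890 genes) in the authors' deposited log2 values, and by 0.03 without the 3 arrays.

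U2AF recognises the 3′ splice site, its small subunit U2af1 at the terminal AG and its large subunit U2af2 at the pyrimidine tract before it. All 3 U2AF genes were higher at day 14 (median 0.62), against 52.5% of all genes, and the median was 0.38 without the 3 tumor arrays. An unadjusted p under 0.05 was found in 2 of 3, against 18% of all genes. U2af1 had 8.45, 9.14, 9.30, 8.54 and 9.81 at day 14, 8.87, 8.13, 8.54 and 9.45 at day 4, and 7.90 to 8.89 with a median of 8.10 in controls. Every day 14 array was above the control median, and arrays 2, 3 and 5 were above the highest control. Its difference was 0.79 (SE 0.282, 1.73-fold, unadjusted p = 0.0131, adjusted p = 0.269 by limma), and 0.51 without the 3 arrays. U2af2 had 7.35, 8.62, 8.56, 8.52 and 8.86 at day 14, 8.60, 7.83, 7.75 and 7.97 at day 4, and 7.4 to 8.10 with a median of 7.82 in controls. Day 14 array 1 lay below every control and the other 4 day 14 arrays above every control. The difference of U2af2 was 0.62 (SE 0.255, unadjusted p = 0.0285, adjusted p = 0.269 by limma), and 0.38 without the 3 arrays. U2af1l4, a paralog of the small subunit, differed by 0.34 (SE 0.195).

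The promoters of 48 of the 58 genes were found in RefSeq's mouse sequences (build GRCm38.p6). In the 250 bases before the start site, both strands were searched for CCGGAAG, the core of ETS family sites, the palindrome bound by NRF1 (GCGCA, any base, then GCGC) and CCAAT, the box bound by NF-Y. CCGGAAG stood in 26.2% of the 65 promoters of these genes, against 6.91% of all 32851 mouse promoters in the table. The NRF1 palindrome stood in 23.1%, against 3.74%, and CCAAT in 50.8%, against 33.8%. A match is only a match of letters. The promoters below belong to the 3 genes with the smallest p among those higher at day 14 and to the 1 gene lower at that limit, and capitals mark the matches, read 5′ to 3′ on the strand of the gene. They lie at chr10:75517792-75518041, plus strand (Snrpd3), chr17:31658765-31659014, minus strand (U2af1), chr10:80798485-80798734, plus strand (Sf3a2) and chr5:100039223-100039472, minus strand (Hnrnpdl).
Snrpd3: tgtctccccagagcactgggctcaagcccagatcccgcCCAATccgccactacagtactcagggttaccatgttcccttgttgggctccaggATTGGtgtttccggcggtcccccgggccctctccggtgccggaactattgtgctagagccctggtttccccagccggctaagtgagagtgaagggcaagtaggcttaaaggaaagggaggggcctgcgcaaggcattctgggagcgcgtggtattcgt
U2af1: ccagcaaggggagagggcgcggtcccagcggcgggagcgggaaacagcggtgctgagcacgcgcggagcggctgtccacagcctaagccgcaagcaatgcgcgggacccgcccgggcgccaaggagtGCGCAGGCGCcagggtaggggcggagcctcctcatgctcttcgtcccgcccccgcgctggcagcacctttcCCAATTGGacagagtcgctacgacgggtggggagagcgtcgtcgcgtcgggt
Sf3a2: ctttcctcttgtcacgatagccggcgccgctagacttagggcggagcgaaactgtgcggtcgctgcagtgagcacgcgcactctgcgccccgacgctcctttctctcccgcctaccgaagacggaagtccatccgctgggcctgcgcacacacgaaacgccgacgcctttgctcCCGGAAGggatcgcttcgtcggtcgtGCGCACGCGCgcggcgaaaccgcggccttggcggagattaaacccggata
Hnrnpdl: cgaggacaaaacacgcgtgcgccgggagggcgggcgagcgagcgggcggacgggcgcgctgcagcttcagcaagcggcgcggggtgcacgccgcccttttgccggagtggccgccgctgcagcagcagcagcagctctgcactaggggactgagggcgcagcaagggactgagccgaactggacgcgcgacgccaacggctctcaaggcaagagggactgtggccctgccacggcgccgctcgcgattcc
Snrpd3 held a CCAAT box on each strand. U2af1 held the NRF1 palindrome and a CCAAT box on each strand, and those boxes overlap. Sf3a2 held the ETS core and the NRF1 palindrome, and the window of Hnrnpdl held 0 matches. Matches stood in genes of either sign: Srsf5, with a difference of -0.21, held the ETS core. Snrpf, with 0.60, held neither that core nor the palindrome, though it held a CCAAT box.

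**Figure D2:**
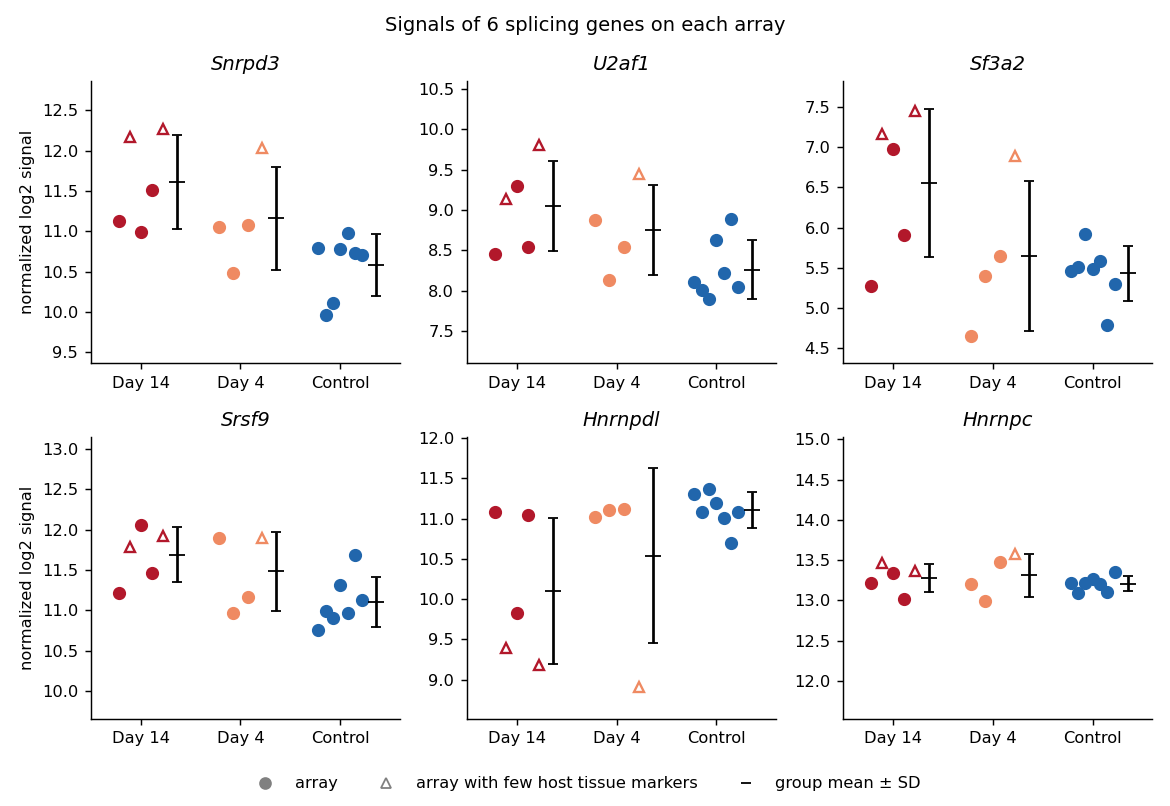
Normalized log2 signal (vertical axis, each panel spanning the same range in log2 units) of Snrpd3, U2af1, Sf3a2, Srsf9, Hnrnpdl and Hnrnpc on each array at day 14, at day 4 and in controls, with the group mean ± SD. Open triangles are the 3 tumor arrays with few host markers, which lie high for Snrpd3, U2af1 and Sf3a2 and low for Hnrnpdl, while Hnrnpc is level.

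The U5 particle and the tri-snRNP bring the catalytic center of the spliceosome. The 4 genes of this class differed little at day 14 (median 0.20), and the median was -0.02 without the 3 tumor arrays. Prpf8, the large protein at that center, had 9.85, 10.33, 10.12, 10.19 and 10 at day 14, 10.32, 9.83, 9.87 and 10.51 at day 4, and 9.78 to 10.28 with a median of 10.20 in controls. The groups overlapped throughout, and the difference was -0.01 (SE 0.168). Prpf6, which bridges the tri-snRNP, had 7.99, 9.73, 8.02, 8.87 and 9.74 at day 14, 8.87, 8.56, 8.03 and 9.55 at day 4, and 8.26 to 8.70 with a median of 8.46 in controls. The 3 arrays with few host markers carried its 3 highest values, so that the difference was 0.38 (SE 0.33) with them and -0.20 without. Among the other Prpf genes (6 tested, median 0.13), Prpf38a, a component of the precatalytic spliceosome, differed by 0.32 (SE 0.189). Prpf19, the ubiquitin ligase of the complex that joins during activation, differed by 0.19 (SE 0.191), and Prpf18 by 0.00 (SE 0.14).

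The SR genes were split in sign. Of 9 SR genes, 6 were higher at day 14 (median 0.11, range -0.21 to 0.59), against 52.5% of all genes. An unadjusted p under 0.05 was found in 1 of 9, against 18% of all genes. Srsf9 had 11.22, 11.79, 12.06, 11.46 and 11.92 at day 14, 11.90, 10.97, 11.16 and 11.90 at day 4, and 10.75 to 11.69 with a median of 10.99 in controls. Every day 14 array was above the control median, and arrays 2, 3 and 5 above every control. Its difference was 0.59 (SE 0.229, unadjusted p = 0.0214, adjusted p = 0.269 by limma), and 0.48 without the 3 tumor arrays. Srsf1, one of the founding SR proteins, had 12.83, 13.28, 12, 12.62 and 12.99 at day 14, 12.61, 12.37, 12.83 and 12.30 at day 4, and 12.45 to 12.89 with a median of 12.73 in controls. It was highest on day 14 array 2 and lowest on day 14 array 3, and differed by 0.08 (SE 0.204), or -0.18 without the 3 arrays. Srsf2, which contacts exonic enhancers, differed by 0.11 (SE 0.176). Srsf3, the smallest SR protein, differed by 0.27 (SE 0.274) and by -0.09 without the 3 arrays. Srsf5, by contrast in sign, differed by -0.21 (SE 0.238), and by 0.06 without them.

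A single array, day 14 array 3, was low for several genes, SR genes among them. Srsf6 had 10.59, 10.85, 9.35, 10.62 and 10.73 at day 14, 10.80, 10.60, 10.37 and 10.37 at day 4, and 10.35 to 10.70 with a median of 10.52 in controls. Its difference of -0.11 (SE 0.225) was 0.156 without day 14 array 3. Srsf10, which represses splicing when dephosphorylated, had 8.95, 9.59, 7.16, 8.56 and 9.53 at day 14, 9.49, 8.26, 8.77 and 9.55 at day 4 and 7.99 to 9.20 in controls, and differed by 0.14 (SE 0.387), or 0.534 without day 14 array 3. Prpf38b had 7.00, 8.98, 5.84, 8.23 and 7.78 at day 14, 7.57, 7.91, 7.36 and 7.82 at day 4 and 7.11 to 8.00 in controls, and differed by 0.06 (SE 0.40), or 0.492 without that array. The same array was above every control for Snrpd3, Snrpf, Lsm2, Lsm8, Sf3a2, Sf3b4, U2af1, U2af2 and Srsf9. On it 45 of 46 host markers were detected, so it was not among the 3 arrays left out above.

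The hnRNP genes held the 1 splicing gene lower at day 14 at an unadjusted p under 0.05. Of 13 tested, 9 were higher (median 0.21), against 52.5% of all genes, with a median of -0.00 without the 3 tumor arrays. Hnrnpdl, a relative of the AU-rich element binding protein Hnrnpd, had 11.08, 9.39, 9.83, 11.04 and 9.18 at day 14, 11.02, 11.10, 11.12 and 8.91 at day 4, and 10.70 to 11.37 with a median of 11.08 in controls. The 3 arrays with few host markers and day 14 array 3 were below every control, and the other 5 tumor arrays were within the control range. Its difference was -1.0 (SE 0.413, 0.5-fold, unadjusted p = 0.0283, adjusted p = 0.269 by limma), and -0.45 without the 3 arrays. Its second probe differed by -0.21 (SE 0.233).

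Hnrnpll, known in lymphocytes for the splicing of Ptprc (CD45), had 10.5, 11.15, 10.97, 10.34 and 11.28 at day 14, 11.17, 10.19, 10.77 and 10.94 at day 4, and 10.01 to 10.91 with a median of 10.30 in controls. It was above every control on day 14 arrays 2, 3 and 5 and day 4 arrays 1 and 4, and differed by 0.50 (SE 0.224, unadjusted p = 0.0397, adjusted p = 0.269 by limma), or 0.26 without the 3 arrays. Of 4 T cell markers, 0 were detected on each of those 3 arrays and all 4 on every other array. Their mean log2 signal was highest on day 4 array 1 (8.82) and, among controls, on array 6 (8.63). Hnrnpll stood at 11.17 on that day 4 array and at 10.91, its highest control value, on control array 6. The part of T cells in the Hnrnpll signal was not tested. Hnrnpl, its paralog, differed by 0.33 (SE 0.206), and by 0.27 without the 3 arrays. Hnrnpk, a binder of C-rich RNA, differed by 0.23 (SE 0.206), and by -0.00 without them. Hnrnpul1 differed by 0.54 (SE 0.49), and by 0.18 without them. Hnrnpr, which had no scanner signal, differed by 0.12 (SE 0.259, adjusted p = 0.75 by limma among 9890 genes) in the authors' deposited log2 values, and by -0.16 without the 3 arrays. Hnrnph1, which binds G-rich RNA, had 11.71, 11.16, 10.93, 11.75 and 11.33 at day 14, 12.01, 11.79, 12.08 and 11.04 at day 4, and 11.54 to 11.97 with a median of 11.67 in controls, and differed by -0.34 (SE 0.205). Hnrnpc, which binds uridine tracts in nascent RNA, was at 13.28 ± 0.17 at day 14 (SD, n = 5), 13.31 ± 0.27 at day 4 (SD, n = 4) and 13.21 ± 0.09 in controls (SD, n = 7).

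Day 4 was set against control to see what differs early. The splicing genes were again mostly higher, by small amounts. The difference was positive in 45 of 56, against 54.7% of all genes, with a median of 0.208, against 0.0515 over all genes. Limma called 0 of the 56 (0% of all genes, lowest adjusted p 0.75), and 0 of 56 had an unadjusted p under 0.05, against 0.593% of all genes. With array weights, which give less weight to arrays that fit the model poorly, there were 16 such genes (28.6%), all higher, against 11.4% of all genes. No splicing gene had all day 4 arrays above or all below the controls, as 0.0635% and 0.0106% of all genes had. Without day 4 array 4 the median was 0.14, with 45 of 56 positive. Without day 4 array 2 the median was 0.304 and 6 genes (10.7%) fell under that limit, against 8.16% of all genes. Without control array 6 there were 5 such genes (8.93%), against 3.25% of all genes. With median scaling, 78.9% of all unadjusted calls were higher, against 64.3%. These day 4 and day 14 differences share the control arrays.

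The genes nearest the limit at day 4 were Lsm4 (log2 difference 0.37, SE 0.189), Sf3b5 (0.35, SE 0.18) and Snrpd3 (0.58, SE 0.323). Without day 4 array 4 these differences were 0.27, 0.37 and 0.29. Lsm4 had 12.39, 11.99, 11.93 and 12.52 at day 4 and 11.55 to 12.22 with a median of 11.80 in controls. Sf3b5 had 11.91, 11.55, 11.67 and 11.64 at day 4 and 11.03 to 11.72 with a median of 11.31 in controls. All day 4 values of both genes were above the control medians, and in both the groups overlapped. Next came Hnrnpll (0.42, SE 0.24), Lsm2 (0.52, SE 0.314), U2af1l4 (0.34, SE 0.209), U2af1 (0.49, SE 0.302) and Sf3a1 (0.46, SE 0.297), which stood at 0.37, 0.48, 0.27, 0.25 and 0.27 without day 4 array 4. By role, the median was 0.42 for the Sm core, 0.35 for LSm, 0.34 for U2AF, 0.21 for the U2 particle, 0.18 for the U5 and tri-snRNP genes, 0.09 each for other Prpf and hnRNP genes, and -0.01 for SR genes. Without day 4 array 4 the LSm median was 0.16 and that of SR genes 0.12, and the other medians ran from 0.05 to 0.30.

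Between day 14 and day 4, the splicing genes differed by small amounts. The median difference was 0.0836, against -0.0345 over all genes, and 38 of 56 were positive, against 45.5% of all genes. It was -0.00111 without the 3 tumor arrays (all genes -0.0559), -0.000384 without day 14 array 5 alone (all genes -0.0415) and -0.0289 without day 4 array 2 (all genes -0.0509). With median scaling, which shifted the median of all genes by -0.179, it was -0.075 (all genes -0.213). The sign of the median thus changed with the setting, while the median lay 0.0196 to 0.151 above that of all genes in all 28 settings run. That scaling left 4.91% of all unadjusted calls higher, against 33.3%. Limma called 0 of 56 (0% of all genes, lowest adjusted p 1), and 0 of 56 had an unadjusted p under 0.05, against 0.603% of all genes. No splicing gene separated the day 14 from the day 4 arrays, as 0.0529% of all genes did upward and 0.116% downward. Sf3a2 came nearest (0.91, SE 0.461, unadjusted p = 0.0681, adjusted p = 1 by limma, and 0.82 without the 3 arrays), followed by Hnrnph1 (-0.35, SE 0.234), Snrpd3 (0.46, SE 0.345) and Prpf38a (0.28, SE 0.216), at -0.50, 0.34 and 0.21 without the 3 arrays. U2af2 (0.34, SE 0.292), Prpf19 (0.25, SE 0.219), Hnrnph3 (0.34, SE 0.313) and Lsm14a (0.32, SE 0.296) came next, at 0.08, 0.11, 0.43 and 0.14 without them.

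**Figure D3:**
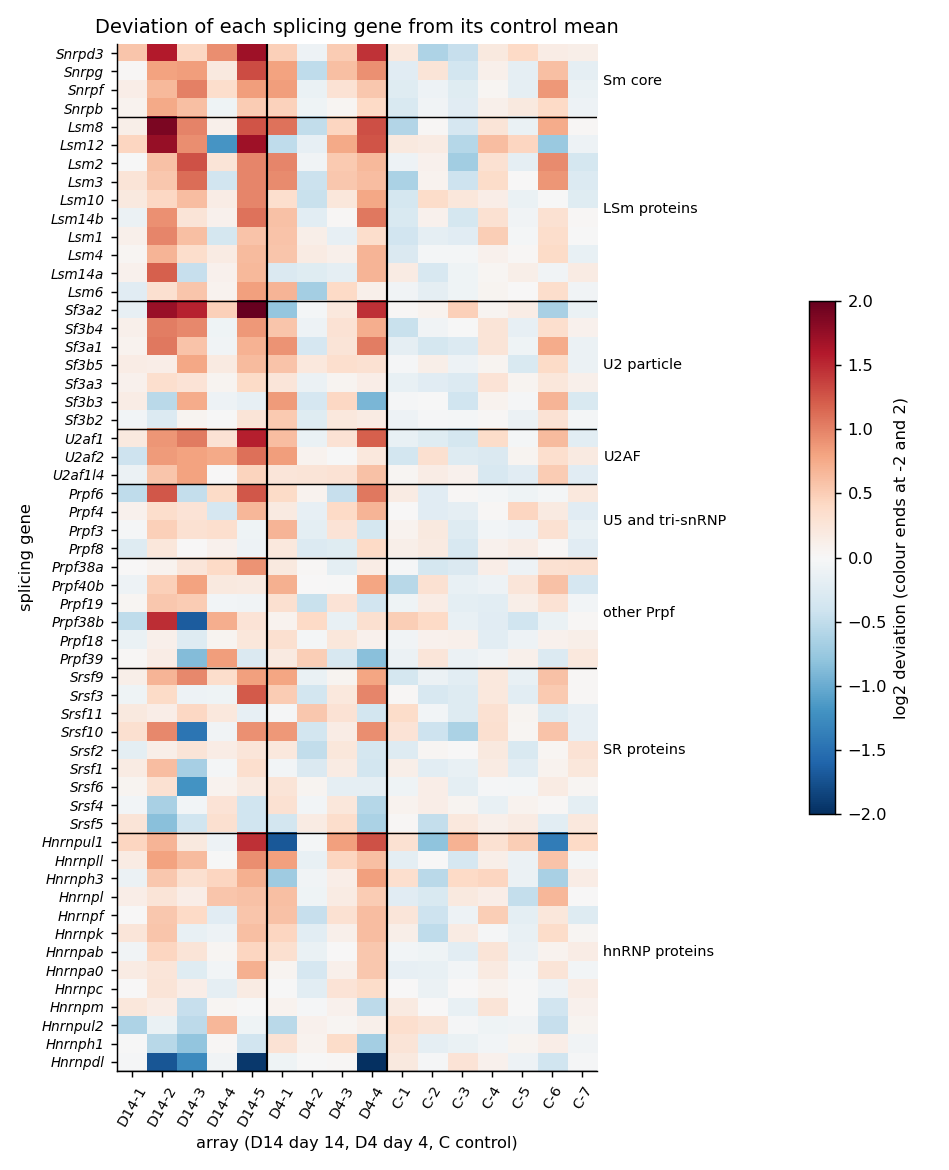
Deviation of each of the 56 splicing genes (rows, by role) from its control mean on each of the 16 arrays (columns: day 14, day 4, control), in log2 units on a colour scale that ends at -2 and 2. Day 14 arrays 2, 3 and 5 and day 4 arrays 1 and 4 are mostly red in the Sm, LSm, U2 and U2AF rows, and Hnrnpdl is blue on day 14 arrays 2, 3 and 5 and day 4 array 4.

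Set against the control mean of each gene, the splicing genes deviated by a median of 0.04, 0.54, 0.29, 0.08 and 0.61 on day 14 arrays 1 to 5. On day 4 arrays 1 to 4 the median deviation was 0.35, -0.12, 0.22 and 0.53, and on the control arrays it ran from -0.15 to 0.27. Day 14 arrays 2, 3 and 5 and day 4 arrays 1 and 4 were above the highest control, array 6, and the other 4 tumor arrays were within the control range. Both tumor groups thus overlapped the controls. Over all genes, the median deviation was -0.01, 0.13, -0.07, -0.06 and 0.17 on day 14 arrays 1 to 5. It was 0.10, 0.00, 0.01 and 0.16 on day 4 arrays 1 to 4 and ran from -0.03 to 0.04 on the control arrays. The highest of 16 values stood on 1 of the 3 arrays with few host markers in 35 of 56 splicing genes (62.5%), against 41.9% of all genes. The lowest stood there in 8 of 56 (14.3%), against 35.9%.

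The mean log2 signal of 12 tested cell cycle genes was 8.73 to 10.96 at day 14, 8.49 to 10.71 at day 4 and 8.46 to 10.21 in controls. It was 10.73, 10.47 and 10.96 on day 14 arrays 2, 3 and 5 and 10.40 and 10.71 on day 4 arrays 1 and 4. These are the 5 tumor arrays on which the splicing genes lay above every control, and control array 6 was the highest control in both measures. The mean of the 10 muscle markers was 4.97 and 4.95 on day 14 arrays 2 and 5 and 4.95 on day 4 array 4, against 9.70 to 13.88 elsewhere. The mean of the 11 melanocyte markers was 8.62 to 12.25 at day 14, 8.85 to 12.43 at day 4 and 5.81 to 12.34 in controls. Among tumor arrays it too was highest on the same 5. It was 11.91, 12.25 and 12.24 on day 14 arrays 2, 3 and 5 and 12.43 and 11.96 on day 4 arrays 1 and 4. Control array 6 was again the highest control (12.34) and lay among these values. The part of the cell cycle, host and melanocyte transcripts in the splicing differences was not tested.

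**Figure D4:**
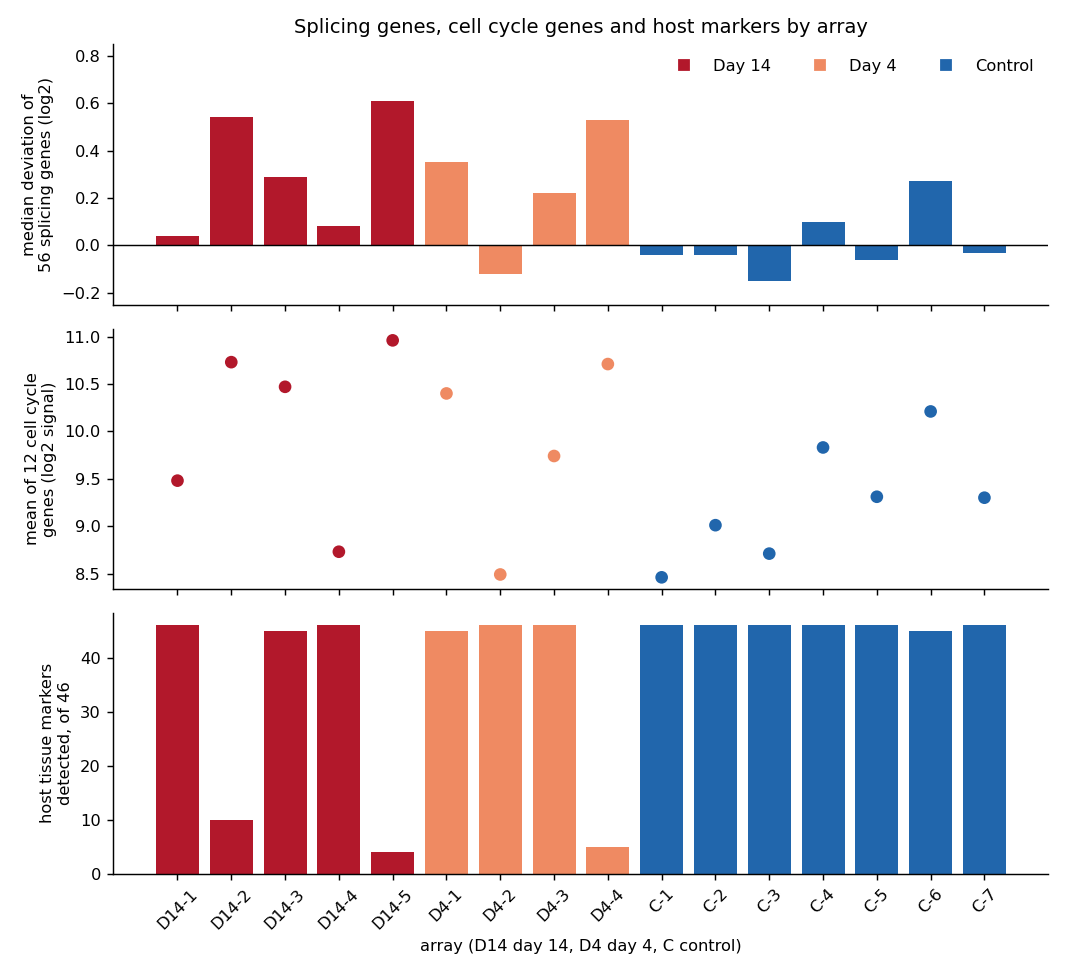
For each array (day 14, day 4, control), the median deviation of the 56 splicing genes from their control means in log2 units (top), the mean log2 signal of 12 cell cycle genes (middle) and the number of 46 host tissue markers detected (bottom). Day 14 arrays 2 and 5 and day 4 array 4 have 4 to 10 host markers and the highest 3 values in the other panels.

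Of the 56 genes, 31 had several probes, and the probes mostly ran the same way. For day 14 against control, 26 of 31 genes had probes of one sign, and the median range between the probes of a gene was 0.316. The probes of Hnrnph1, Hnrnpl, Hnrnpm, Prpf8 and Sf3a1 differed in sign. Fitted over all probes with limma, 21 of 102 probes had an unadjusted p under 0.05 at day 14, against 17.8% of all 14121 probes. Of these 21, 18 were higher, as 7.57% of all probes were, and 0 passed the adjustment (lowest adjusted p 0.273).

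The probes of Hnrnpa0, Hnrnpl, Lsm14b, Prpf19 and Srsf6 differed by over 1 at day 14. The brightest probe of Lsm14b differed by 0.45, and the dimmer one had 5.95, 9.09, 6.22, 5.50 and 9.30 at day 14, 5.23, 5.39, 5.91 and 9.06 at day 4, and 4.66 to 6.16 in controls. The dimmer probe was thus high on the 3 arrays with few host markers alone among all 16, and differed by 1.72 (SE 0.748), or 0.40 without them. For Hnrnpa0, which binds mRNAs of the stress response, the 2 probes differed by 0.16 (SE 0.195) and 1.73 (SE 0.572). Without the 3 arrays they differed by -0.04 and 0.90. For Prpf19, 3 probes differed by 0.19, 0.10 and 1.36, and by 0.16, 0.19 and 0.57 without the 3 arrays. For Srsf6, the 2 probes differed by -0.11 and -1.34 (SE 0.59), and by -0.35 and -0.49 without the 3 arrays. For Hnrnpl, the 2 probes differed by 0.33 and -0.75 (SE 0.326), and by 0.27 and -0.45 without the 3 arrays. The second probe of Hnrnpl was near background, detected on 2 of 5 day 14, 2 of 4 day 4 and 6 of 7 control arrays, so that its difference and its opposite sign rest on a dim signal. The sources used here do not say which transcript each probe reads.

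**Figure D5:**
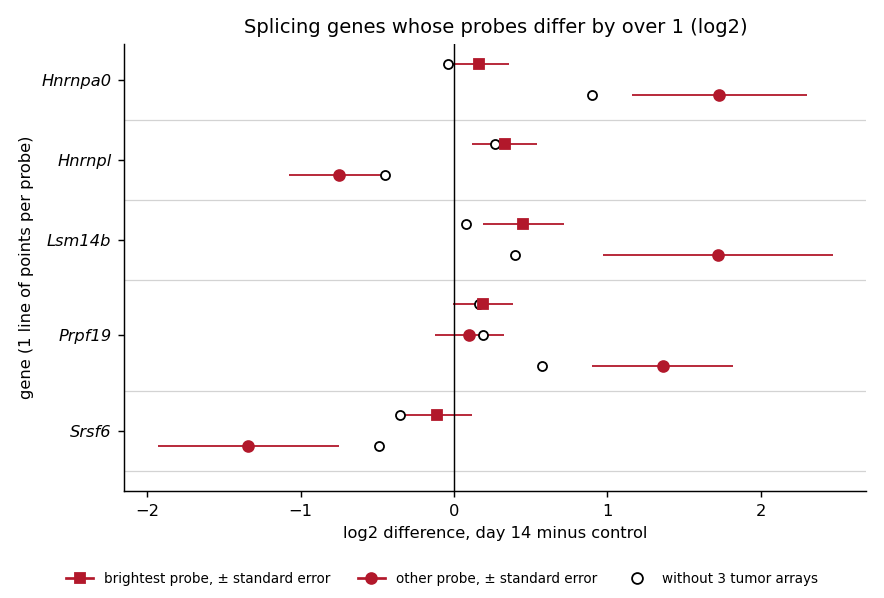
Log2 difference between day 14 and control of each probe of the 5 splicing genes whose probes differ by over 1, with ± 1 standard error, for the brightest probe (squares) and the others (filled circles), and without 3 tumor arrays (open circles). The dimmer probes lie farther from 0 than the brightest one in all 5 genes, except the second probe of Prpf19.

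Other splicing and RNA-processing genes, outside the name families above, were taken from a list of 92, of which 64 were tested. At day 14, 42 of 64 were higher than in controls (median 0.24), against 52.5% of all genes, and limma called 0. At an unadjusted p under 0.05, 8 were higher and 3 lower, against 6.19% and 11.8% of all genes. Without the 3 tumor arrays, 36 of 64 were higher (median 0.0666, all genes -0.0395), with 0 at that limit, against 2.16% of all genes. The higher ones included Dhx9, an RNA helicase, with 6.63, 7.71, 8.13, 7.64 and 8.38 at day 14 and 5.55 to 7.03 in controls (difference 1.19, SE 0.385, and 0.957 without the 3 arrays), and Clns1a, which assembles Sm proteins (0.596, SE 0.187, and 0.442 without them). Smn1, which loads the Sm ring onto small nuclear RNA, differed by 0.474 (SE 0.221), and by 0.254 without them. Among the lower ones was Tardbp, with 9.14, 8.03, 7.86, 9.18 and 7.68 at day 14 and 8.78 to 9.47 in controls (difference -0.741, SE 0.307, and -0.392 without the 3 arrays). Like Hnrnpdl, Tardbp was below every control on day 14 arrays 2, 3 and 5, and it had 9.09, 9.28, 9.29 and 7.93 at day 4, lowest on array 4. The lowest difference was that of Esrp2, an epithelial splicing regulator, at -2.64 (SE 1.25). Esrp2 had 10.03, 4.42, 8.02, 11.34 and 4.46 at day 14, 8.41, 11.04, 10.03 and 4.40 at day 4, and 8.95 to 11.05 in controls. Its 3 lowest values were those of the 3 arrays with few host markers, and without them its difference was -0.50 and no longer the lowest of the 64. At day 4, 40 of 64 were higher than in controls (median 0.09), against 54.7% of all genes. An unadjusted p under 0.05 was found in 0, against 0.593% of all genes. Without the 3 arrays, 43 of 64 were higher at day 4 (median 0.0795). Between day 14 and day 4, 44 of 64 were higher at day 14 (median 0.07), against 45.5% of all genes. Again 0 fell under that limit, against 0.603% of all genes. Without the 3 arrays, 31 of 64 were higher at day 14 than at day 4 (median -0.00882, all genes -0.0559).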

How the data were processed

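Total RNA was extracted with Trizol, cleaned on columns with DNase treatment and labelled as biotinylated cRNA for Illumina bead arrays, per the labels' protocols. Per the file headers, the deposited scanner table holds, for every probe on every array, 1 intensity with its detection p-value. The deposited intensities are linear and not background-subtracted, as judged from the values, with array medians of 105.4 to 155.1. From line 23 after the header on, the deposited p-values stand 2441 lines below their signals. They were moved back before use, after which p fell with signal on every array (0 reversals). The deposited log2 value table, for which the sources used here do not say what the authors did, holds 16247 probes (array medians 8.51 to 8.57) and served as an alternative. Of these probes, 14836 have 1 symbol in the platform annotation, 5 have several and 1406 have none, and symbols were updated by gene ID for 14830. Only probes of that table with 1 symbol were tested, although 42831 lines of the scanner table hold a signal. All shares of genes or probes therefore rest on that selection.

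Signals were corrected and quantile-normalized with neqc (offset 16) of limma 3.58.1 in R 4.3.3. Probes detected (p under 0.05) on 4 or more arrays were kept (14121 of 14124), and the probe with the highest mean stood for each gene. One limma model held the 3 groups over 16 arrays, with no slide block, as slides are not named here. Tests were two-sided, and p-values were adjusted by Benjamini-Hochberg over 9450 genes. The number of arrays limits the precision. Over all genes, standard errors had a median of 0.324 log2 units between day 14 and control (splicing genes 0.231), 0.347 between day 4 and control (0.247), and 0.372 between both days (0.265). The model was tested on simulated data.

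The splicing genes and all gene lists were chosen with earlier results of these data known. Genes are named where they have the 8 smallest p-values of a comparison, the smallest p of their role, the 6 largest or 4 smallest SDs, probes that differ in sign, or a fixed place on a short list of well-known factors (of which Hnrnpa1, Hnrnpa2b1, Hnrnpu, Sf3b1, Snrpn and Snrnp70 were not analysed here). Snrpg, Srsf6, Srsf10, Prpf38b, Prpf39, Hnrnpa0, Hnrnpr, Sf3b6 and the genes named from the list of 92 were named after their values were seen. Promoters came from RefSeq. Alternatives covered the filter, background correction, scaling, probe choice, value table, array weights, moderation, a replicate block and each array left out.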

Additional observations from a re-analysis of the deposited data

Results flagged for a closer look

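In groups of 4 to 10 arrays, the highest or lowest array was compared with its nearest neighbor by Dixon's criterion, in the 3 groups of each of 40 named splicing genes and of the median deviation over all 56 (123 groups in all). It singled out 7 values. Chance singles out about 1 group in 20 among genes chosen without regard to their values. The 40 genes include some named for their values, such as Srsf6, and some named for a large or small SD. That rate therefore does not hold here as it stands, and the 7 values are only listed. Of the 7, 3 stood on day 4 array 4: Hnrnpdl at 8.91 (nearest day 4 array 11.02), Lsm14a at 11.70 (nearest 10.85) and U2af1l4 at 7.43 (nearest 7.14). On control array 6, Snrpf stood at 11.58 (nearest 10.75) and Sf3b2 at 12.05 (nearest 11.79), both above the other 6 controls. Srsf6 stood at 9.35 on day 14 array 3, below the nearest day 14 array at 10.59, and U2af2 at 7.35 on day 14 array 1, below the nearest at 8.52.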

How the results depend on the processing

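Under 27 alternatives, 0 splicing genes were called in any of the 3 comparisons. The median differences ran from 0.135 to 0.375 for day 14 against control, from 0.14 to 0.307 for day 4 against control and from -0.075 to 0.146 for day 14 against day 4. Of 49 single-gene differences, 33 kept their sign throughout. At day 14, splicing genes with an unadjusted p under 0.05 numbered 4 with median scaling (17% of all genes) and 6 with array weights (7.26%). Above the main count of 12, there were 15 with the deposited value table (18%) and 15 of 54 with probes detected on all 16 arrays (15.4%). There were 16 without background correction (17.9%), with the mean of probes (18.6%) and with robust moderation and a trend (18.1%). Such genes numbered 1 without the 3 tumor arrays (2.16%) and 3 to 18 with single arrays left out (4.22 to 34.9%). At day 4 they numbered 2 with the deposited value table (0.561% of all genes), 2 without background correction (0.603%), 2 with robust moderation and a trend (0.624%), 16 with array weights (11.4%) and 0 to 6 with single arrays left out (0.0529 to 8.16%). Between day 14 and day 4 they numbered 1 with array weights (2.16%) and 0 to 4 with single arrays left out (0.508 to 4.12%). The labels do not say whether equal replicate numbers mark pairs. Over 13 same-numbered pairs, correlations of their deviations ran from -0.806 to 0.446, 6 over 0.1, and 2 of 14 arrays were closest to their own number. These correlations cannot decide the question. The lowest, -0.806 and -0.752, each set an array with few host markers against one with 46 detected. The replicate block gave 6 splicing genes with an unadjusted p under 0.05 at day 14 (9.57% of all genes). It put Prpf18 at 0.0414 and Sf3b2 at 0.0399, and changed no call.

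The other reversed day 14 differences were as follows. Without the 3 tumor arrays they were -0.0429 for Hnrnpa0, -0.0188 for Hnrnpc, -0.000762 for Hnrnpk, -0.482 for Prpf38b, -0.199 for Prpf6, -0.18 for Srsf1, -0.397 for Srsf10, -0.0878 for Srsf3 and 0.0604 for Srsf5. With the mean of probes they were -0.21 for Hnrnpl and 0.117 for Prpf8. With array weights they were -0.276 for Prpf38b, 0.013 for Sf3b2, -0.0163 for Srsf1, -0.0149 for Srsf2 and, between day 14 and day 4, -0.031 for Prpf19. With median scaling they were -0.193 for Prpf38b, 0.0151 for Sf3b2 and -0.015 for Srsf10, and without background correction 0.000126 for Prpf18. With single arrays left out, Prpf18 ran from -0.0572 to 0.0641, Prpf38b from -0.292 to 0.492, Prpf8 from -0.0639 to 0.0552, Sf3b2 from -0.0769 to 0.0558, Srsf1 from -0.0523 to 0.268, Srsf10 from -0.0719 to 0.534 and Srsf6 from -0.218 to 0.156. The causes were not tested. Signals near background limit Prpf39 and Sf3a2 and, on day 4 array 1 (5.00), Hnrnpul1. None of these genes was detected on every array.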
